A study of Mus musculus with 8 samples.

Results

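The genes described here encode mTOR, proteins that set and carry its signal, kinases that phosphorylate ribosomal protein S6, and their relative MSK1. The genes were chosen by their symbols. The 10 genes are Mtor, Rptor, Rictor, Tsc1, Tsc2, Rheb, Rps6kb1, Rps6kb2, Rps6ka1 and Rps6ka5, out of 53242 genes in the tables, and each symbol matched a single row. Their mRNA was compared between control and 4A1 KO B cells, the knock-out of the translation initiation helicase EIF4A1.

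Splenic B cells came from C57BL/6 mice of 8 to 12 weeks, either Eif4a1+/+ CD23-cre (control) or Eif4a1fl/fl CD23-cre (4A1 KO). Cd23-cre deletes floxed alleles from splenic immature B cells onwards, and both genotypes carried it. Irradiated CD40LB cells, feeders that express CD40 ligand and BAFF, activated the B cells over 24 h in medium with 40 ng/ml IL4, and the feeders were then removed with an antibody and magnetic beads. Each genotype had 4 libraries, each from a separate mouse and numbered 1 to 4. Odd-numbered replicates were male and even-numbered ones female, and batch A held replicates 1 and 2 while batch B held the rest. The study left out replicate 1 of both genotypes because cell viability was reduced in it. Tests therefore used replicates 2 to 4 (n = 3 per genotype) unless all 8 libraries are named, and replicate 1 is shown beside them.

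mTOR is a kinase that works in a pair of complexes. Raptor (Rptor) defines mTORC1, which drives protein synthesis and cell growth when nutrients and growth signals are present, and Rictor defines mTORC2, which phosphorylates AKT. Tuberin (Tsc2) and hamartin (Tsc1) form the brake on the small GTPase RHEB, which switches mTORC1 on at the lysosome. The S6 kinases S6K1 (Rps6kb1) and S6K2 (Rps6kb2) are direct mTORC1 substrates and phosphorylate ribosomal protein S6 and EIF4B, the cofactor of EIF4A. RSK1 (Rps6ka1) and MSK1 (Rps6ka5) belong to the same kinase superfamily but receive their signal from MAP kinases. RSK1 shares S6 and EIF4B with the S6 kinases, and MSK1 phosphorylates CREB and histone H3. In activated B cells mTORC1 supports the growth that comes before division.

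The upstream sequences of 4 of these genes are shown because 3 of them, Mtor, Rptor and Rictor, encode the mTOR complexes and had higher mRNA in 4A1 KO, and the 4th, Rps6ka1, had lower mRNA. Each is the 150 bases before a RefSeq transcription start, taken from the GRCm38.p6 promoter table, written 5′ to 3′ on the strand of the gene and placed by exact match on GRCm39. Capitals mark CCAAT and GGGCGG, the CCAAT box and the GC box, on either strand, and the E-box CACGTG and the cAMP response element TGACGTCA were searched as well. The windows lie at chr4:148532889-148533038 (plus strand) for Mtor, chr11:119493581-119493730 (plus strand) for Rptor, chr15:6737712-6737861 (plus strand) for Rictor and chr4:133615109-133615258 (minus strand) for Rps6ka1.
Mtor: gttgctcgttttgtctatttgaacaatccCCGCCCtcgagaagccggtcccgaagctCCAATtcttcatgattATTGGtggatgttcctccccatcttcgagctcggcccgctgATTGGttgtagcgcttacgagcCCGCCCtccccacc
Rptor: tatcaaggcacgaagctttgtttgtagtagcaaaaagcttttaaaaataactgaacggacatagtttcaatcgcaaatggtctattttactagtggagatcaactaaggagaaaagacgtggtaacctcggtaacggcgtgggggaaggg
Rictor: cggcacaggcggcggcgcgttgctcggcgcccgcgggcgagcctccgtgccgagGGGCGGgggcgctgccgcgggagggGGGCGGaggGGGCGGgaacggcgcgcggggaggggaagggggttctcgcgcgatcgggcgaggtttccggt
Rps6ka1: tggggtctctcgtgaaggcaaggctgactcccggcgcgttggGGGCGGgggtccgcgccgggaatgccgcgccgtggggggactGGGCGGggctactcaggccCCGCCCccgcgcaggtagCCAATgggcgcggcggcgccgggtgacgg

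The Mtor window held 3 CCAAT boxes and 2 GC boxes, and the Rictor window 3 GC boxes. The Rptor window held none of the 4 motifs, and the Rps6ka1 window held 3 GC boxes and 1 CCAAT box. The table held 9 of the 10 genes. A GC box was present in 5 of the 9, against 28.6% of 32851 promoter windows of the same length, and a CCAAT box in 3 of the 9, against 24.5%. The E-box was found only before Rheb (4.3% of all windows), and the cAMP response element before none of the 9 (1.36%). The motifs GGGCGG and CCAAT overlap in the window of Rps6ka5, which is not printed. GC boxes stood before genes with higher mRNA in 4A1 KO (Mtor, Rictor, Rheb) and before genes with lower mRNA (Rps6ka1, Rps6ka5).

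The 6 libraries tested held 38488341 to 43210858 counts each, and the smallest of the 8, 4A1 KO replicate 1, held 31727557. Eif4a1 itself, the check of the labels, was at 933 to 1142 TPM in control and 700 to 843 TPM in 4A1 KO. It fell by 0.44 on the log2 scale (edgeR, adjusted p = 0.000115). Exons 2 to 4 are floxed, and counts over the whole gene also include reads from the exons that stay. The 7 B cell markers were counted in all 8 libraries and summed to 6580 to 7720 CPM in control and 6980 to 7410 CPM in 4A1 KO, and 3 of them were called lower. Markers of other cells summed to far less. The 10 fibroblast markers, which the feeders would carry, summed to 30.6 to 59.4 CPM in control and 27.1 to 39.7 CPM in 4A1 KO, with 8 of 10 counted in all libraries and Postn at 0 throughout. The 6 T cell markers summed to 0.457 to 1.11 and 0.348 to 0.779 CPM, with Cd3g at 0, and the 6 myeloid markers to 4.09 to 8.14 and 7.31 to 8.97 CPM, with S100a8 at 0. Of these markers Adgre1 and Fn1 were called higher, with log2 fold changes of 0.62 and 0.86 (edgeR, adjusted p = 0.00687 and 0.0215), and Col3a1 lower, at -1.57 (adjusted p = 0.0437). The genes studied here are used by most cell types. The part of RNA from feeders or other cells in their values was not tested.

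A gene is said to be called when its adjusted p was under 0.05 and its log2 fold change between genotypes was beyond 0.5 in either direction, and to have risen or fallen when its adjusted p for counts was under 0.05. All 10 genes passed the filters on low values of both tables. By counts, 4 of the 10 were called, 2 higher (Tsc1, Rictor) and 2 lower (Rps6ka1, Rps6ka5). Of all 14218 genes tested, 25.3% were called, 11.6% higher and 13.7% lower. By the adjusted p alone 9 of the 10 passed, 6 higher and 3 lower, where 53.0% of all genes passed, 26.3% higher and 26.7% lower. The median log2 fold change was 0.24 over the 10 genes and 0.01 over all genes tested. So a wide part of the transcriptome differed between the genotypes. Mtor, Rptor and Rictor, and Tsc1, Tsc2 and Rheb, were higher in 4A1 KO, Rps6kb1 and Rps6kb2 lay within 0.15 of control on the log2 scale, and Rps6ka1 and Rps6ka5 were lower. Values are shares of each library's RNA, and RNA per cell was not measured, so fewer cells that express a gene and less of its RNA per cell cannot be told apart.

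**Figure D1:**
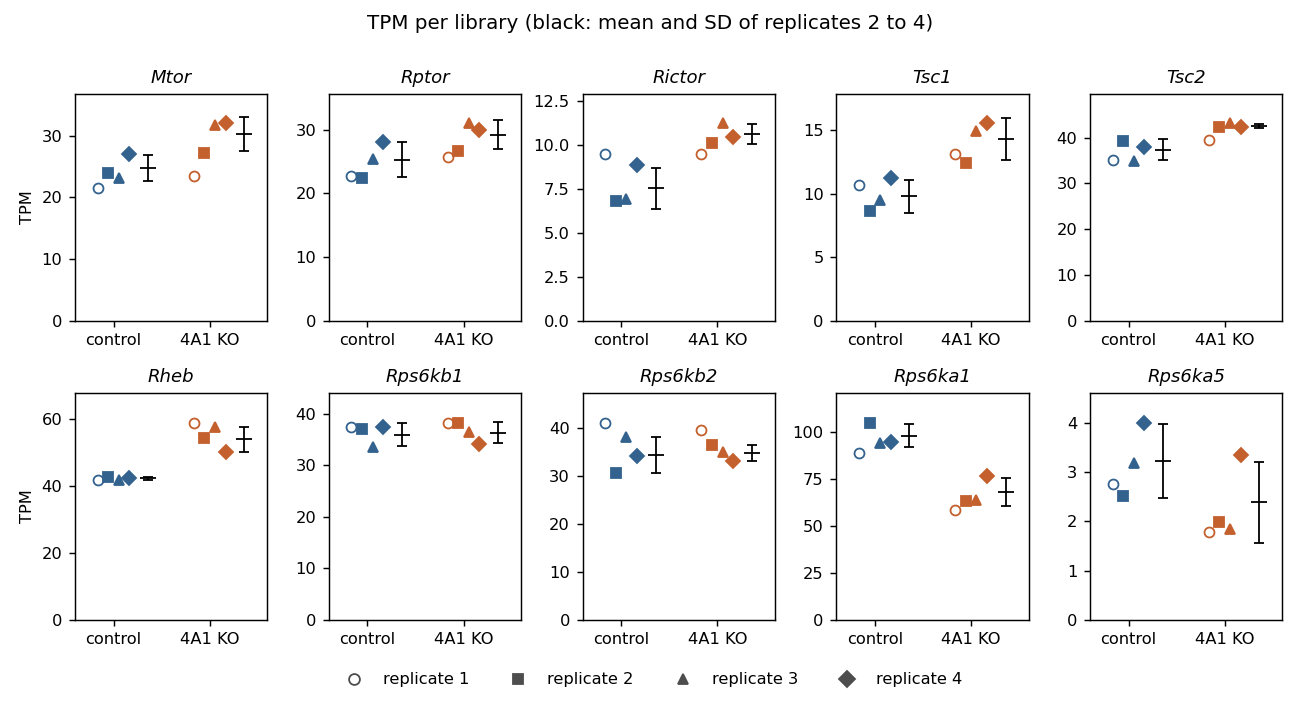
TPM of each of the 10 genes (vertical axes, each from 0) in the control (blue) and 4A1 KO (orange) libraries, with replicate 1 as open circles and the mean and SD of replicates 2 to 4 in black. Tsc1, Rheb and Rps6ka1 have no control library at the level of a 4A1 KO library, and Rps6kb1 and Rps6kb2 lie at about the same height in both genotypes.

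Tsc1 (chr2:28531061-28581179, plus strand) had the smallest adjusted p of the 10. Hamartin, its product, keeps tuberin stable in the TSC complex. In control replicates 1 to 4 Tsc1 stood at 10.7, 8.67, 9.49 and 11.2 TPM. In 4A1 KO replicates 1 to 4 it stood at 13.1, 12.4, 15.0 and 15.6 TPM. Every 4A1 KO library was above every control library, and the smallest difference between libraries of the same number was in replicate 1. The counts rose 1.46-fold, a log2 fold change of 0.55 with an SE of 0.0623 (edgeR, adjusted p = 0.000125). In TPM the difference was 0.51 on the log2(TPM + 1) scale (limma, adjusted p = 0.00598). With all 8 libraries in the fit it was 0.48 for counts, short of 0.5, with an adjusted p of 0.000329 (range over the 12 alternative fits that test against no change 8.24e-09 to 0.00648). The remaining alternative, edgeR's glmTreat, tests for a change beyond 0.5. It called none of the 10, with an adjusted p of 0.395 for Tsc1 and of at least 0.104 for the others, and it is left out of the ranges of adjusted p given for counts below.

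Tsc2 (chr17:24814783-24852192, minus strand) encodes tuberin, the GTPase-activating subunit that turns RHEB off. Control libraries 1 to 4 held 35.1, 39.4, 34.9 and 37.9 TPM. The 4A1 KO libraries held 39.4, 42.2, 43.1 and 42.3 TPM. The genotypes did not overlap, but the highest control library (39.38 TPM) and the lowest 4A1 KO library (39.44 TPM) were almost level. Counts rose by a log2 fold change of 0.21 with an SE of 0.0595 (edgeR, adjusted p = 0.0165). Without replicate 3 this was 0.15 (adjusted p = 0.115). That was the highest adjusted p of the 12 alternative fits against no change, which began at 0.00542. Fits without a replicate have fewer libraries than the main fit, so a higher adjusted p there need not come from the mouse left out. In TPM the difference was 0.18 (limma, adjusted p = 0.0834).

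Rheb (chr5:25007821-25047622, minus strand), the GTPase that both of these hold in check, had the smallest SD of the 10 in control (0.442 TPM, n = 4). It stood at 41.6, 42.6, 41.7 and 42.2 TPM there. In 4A1 KO it stood at 58.8, 54.2, 57.3 and 49.9 TPM. The groups were far apart compared with the spread of the controls, and replicate 1 showed the largest difference here. Counts rose 1.28-fold, a log2 fold change of 0.35 with an SE of 0.0615 (edgeR, adjusted p = 0.00134), and TPM by 0.34 (limma, adjusted p = 0.0166). Thus by counts Tsc1, Tsc2 and the switch they act on were higher together, while Tsc2 did not pass in TPM. Tbc1d7, the remaining subunit of the brake, had a log2 fold change of -0.06 (edgeR, adjusted p = 0.631). The Tsc1 to Tsc2 ratio of TPM was 0.304, 0.220, 0.272 and 0.297 in control and 0.333, 0.294, 0.347 and 0.368 in 4A1 KO. The ratio was higher in 4A1 KO in 4 of 4 pairs of the same number, but the ranges overlapped, and the log2 difference of 0.30 did not pass (exact permutation test, two-sided, n = 4, p = 0.0857, adjusted over 3 ratios p = 0.257). An exact sign-flip test over the 4 pairs, two-sided, chosen after the data had been seen, gave p = 0.125, the smallest it can give.

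Mtor (chr4:148533015-148642141, plus strand) encodes the kinase itself. Its control values were 21.6, 24.0, 23.1 and 27.1 TPM. Its 4A1 KO values were 23.5, 27.2, 31.8 and 32.0 TPM. Each 4A1 KO library was above its control of the same number, but replicate 1 of 4A1 KO lay inside the control range. Counts rose 1.24-fold, a log2 fold change of 0.31 with an SE of 0.0615 (edgeR, adjusted p = 0.00264). The TPM difference was 0.28 (limma, adjusted p = 0.0379), and its adjusted p was under 0.05 in 1 of 7 alternative fits, which gave 0.0189 to 0.148.

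Rptor (chr11:119493731-119790402, plus strand) encodes the scaffold through which mTORC1 recognises its substrates. It measured 22.7, 22.4, 25.4 and 28.0 TPM in control. It measured 25.6, 26.7, 31.0 and 30.0 TPM in 4A1 KO. The ranges overlapped, while every pair of the same number was higher in 4A1 KO. The log2 fold change of counts was 0.27 with an SE of 0.0579 (edgeR, adjusted p = 0.00444), and that of TPM was 0.20 (limma, adjusted p = 0.0617). Without the replicate block the adjusted p for counts was also 0.0617, the highest of the 12 alternative fits against no change, which began at 0.00052, and that of Tsc2 was 0.0737.

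Rictor (chr15:6737860-6829882, plus strand), the mTORC2 scaffold, had the most uneven increase. Control libraries 1 to 4 stood at 9.49, 6.81, 6.90 and 8.88 TPM. The 4A1 KO libraries stood at 9.46, 10.1, 11.2 and 10.4 TPM. In replicates 2 to 4 the genotypes were apart, and in replicate 1 they were level. The counts rose 1.45-fold, a log2 fold change of 0.54 with an SE of 0.0822 (edgeR, adjusted p = 0.000652), and TPM by 0.45 (limma, adjusted p = 0.0208). The call rested on single replicates. The log2 fold change was 0.49 without replicate 2, 0.47 without replicate 3 and 0.40 with all 8 libraries, with adjusted p of 0.0135, 0.00253 and 0.00968, and over the 12 alternative fits against no change the adjusted p ran from 9.86e-07 to 0.0135 (0.566 with glmTreat).

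The Rptor to Rictor ratio sets the scaffolds of the 2 complexes against each other within a library. It was 2.39, 3.29, 3.68 and 3.16 in control and 2.71, 2.64, 2.76 and 2.87 in 4A1 KO, on the TPM scale. The control libraries spread around the 4A1 KO libraries, with replicate 1 below and replicates 2 to 4 above them. The log2 difference was -0.17 over 8 libraries (exact permutation test, two-sided, n = 4, p = 0.257, adjusted over 3 ratios p = 0.386) and -0.29 in replicates 2 to 4, where the p of 0.1 is the smallest that 3 against 3 can give. A shift between the complexes was not shown.

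**Figure D2:**
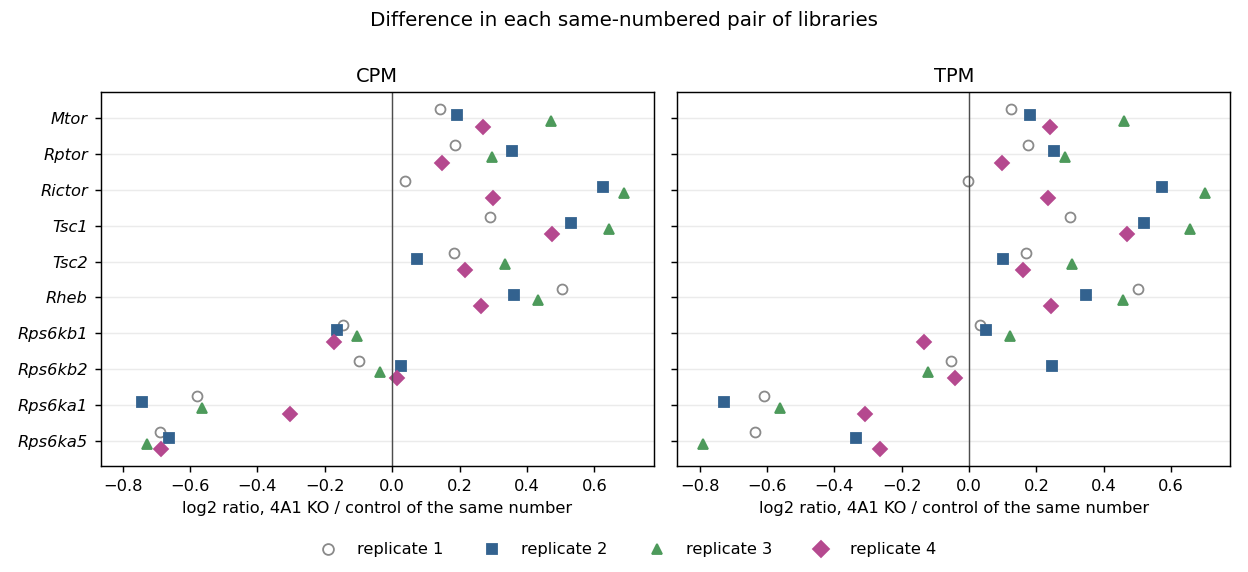
Log2 ratio of 4A1 KO to control for libraries of the same replicate number (horizontal axis), in CPM (left) and TPM (right), 1 symbol per replicate. Rictor in replicate 1 lies at 0.04 in CPM while replicates 2 and 3 lie at 0.63 and 0.69, and the 4 values of Rps6ka5 lie close together in CPM and apart in TPM.

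The S6 kinases proper differed least. Rps6kb2 (chr19:4203990-4213400, minus strand), S6K2, was at 41.2, 30.7, 38.2 and 34.1 TPM in control. It was at 39.7, 36.4, 35.1 and 33.1 TPM in 4A1 KO. The groups lay on top of each other. The log2 fold change of counts was 0.00 with a 95% interval of -0.15 to 0.15 (edgeR, adjusted p = 0.996), and that of TPM 0.03 with an interval of -0.21 to 0.26 (limma, adjusted p = 0.824). Changes smaller than these intervals cannot be told from none.

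Rps6kb1 (chr11:86360804-86435982, minus strand), S6K1, gave a different picture in the counts and in the TPM. Its counts were 2670, 2810, 3042 and 3374 in control and 1903, 2390, 2760 and 2940 in 4A1 KO. Scaled to library size they were 66.7, 69.5, 73.2 and 77.5 CPM in control and 60.2, 62.0, 68.1 and 68.7 CPM in 4A1 KO. Every pair was lower in 4A1 KO, although the ranges overlapped. The TPM were 37.5, 37.0, 33.5 and 37.5 in control and 38.4, 38.3, 36.5 and 34.2 in 4A1 KO, with no order between the groups. The log2 fold change was -0.15 with a 95% interval of -0.27 to -0.03 for counts (edgeR, adjusted p = 0.0415) and 0.01 with an interval of -0.18 to 0.21 for TPM (limma, adjusted p = 0.900). The adjusted p for counts was under 0.05 in 4 of the 12 alternative fits against no change, which gave 0.0134 to 0.158. The ratio of TPM to CPM in a library, taken against the median ratio of all genes there, was higher in 4A1 KO by 0.17 on the log2 scale for Rps6kb1 and by 0.19 for Rps6ka5, and by at most 0.0402 in either direction for the other 8. The exact permutation test, which does not pair the libraries, gave unadjusted p = 0.257 and 0.0857 (two-sided, n = 4). Within pairs of the same number the ratio was higher in 4A1 KO in 4 of 4 for Rps6kb1 and in 3 of 4 for Rps6ka5, with p = 0.125 and 0.25 in an exact sign-flip test that cannot go below 0.125. Why the tables differ was not tested, and this ratio was compared after the values had been seen.

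The ratio of Rps6kb1 to Rps6kb2 TPM was 0.911, 1.21, 0.878 and 1.10 in control and 0.967, 1.05, 1.04 and 1.03 in 4A1 KO. By TPM both kinases were thus at a like level per length in either genotype. Each shares exon bases with neighbours on the other strand, whose part in the TPM ratio was not tested. The log2 difference was 0.01 (exact permutation test, two-sided, n = 4, p = 0.943), and it changed sign in CPM (-0.12, p = 0.4), where the ratio was lower in 4A1 KO in 4 of 4 pairs (exact sign-flip test, chosen after the data had been seen, p = 0.125, the smallest it can give).

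**Figure D3:**
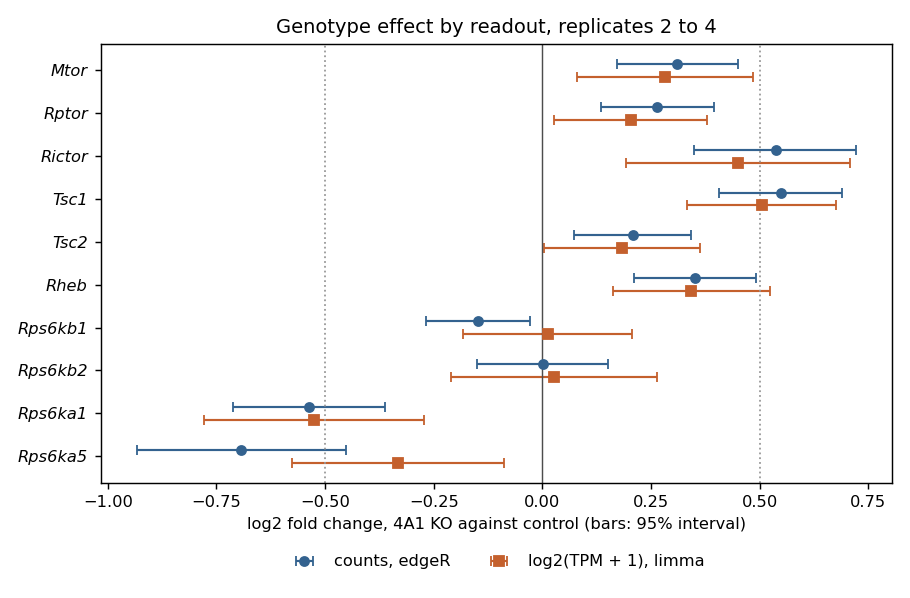
Log2 fold change of 4A1 KO against control with its 95% interval (horizontal axis) for each of the 10 genes, from counts with edgeR (blue circles) and from log2(TPM + 1) with limma (orange squares), replicates 2 to 4, with dotted lines at 0.5 in both directions. The intervals for counts and TPM overlap for every gene, and the estimates lie farthest apart for Rps6ka5 (-0.69 and -0.33) and Rps6kb1 (-0.15 and 0.01).

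Rps6ka1 (chr4:133572777-133615135, minus strand), RSK1, had the highest mean of the 10 in both genotypes and was lower in 4A1 KO. Control libraries 1 to 4 held 89.0, 105.3, 94.4 and 94.9 TPM. The 4A1 KO libraries held 58.4, 63.6, 63.9 and 76.6 TPM. No 4A1 KO library reached the lowest control. Counts fell by 0.54 on the log2 scale with an SE of 0.0772, to 0.689 of control (edgeR, adjusted p = 0.00046), and TPM by 0.53 (limma, adjusted p = 0.0131). Replicate 2 had the largest difference. Without it the log2 fold change of counts was -0.43 (adjusted p = 0.0065, with 1.81e-09 as the lowest of the 12 alternative fits against no change, and 0.55 with glmTreat), no longer beyond 0.5.

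Rps6ka5 (chr12:100514658-100693242, minus strand), MSK1, was the least abundant of the 10 and had the largest log2 fold change in counts. It had 300, 279, 321 and 447 counts in control. It had 147, 168, 189 and 273 counts in 4A1 KO. In CPM the groups did not overlap, with 6.90 to 10.3 in control and 4.36 to 6.38 in 4A1 KO. Counts fell by 0.69 on the log2 scale with an SE of 0.106 (edgeR, adjusted p = 0.000662). In TPM control stood at 2.76, 2.50, 3.18 and 4.01 and 4A1 KO at 1.78, 1.98, 1.84 and 3.34. The 4A1 KO library of replicate 4 lay above the other 3 and inside the control range. The TPM difference was -0.33 (limma, adjusted p = 0.0399). With 0.1 TPM added before the log in place of 1 TPM it was -0.45 (adjusted p = 0.0505), still nearer 0 than in counts, and over 7 alternative fits the adjusted p ran from 0.0307 to 0.241.

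By TPM, 6 of the 10 genes had an adjusted p under 0.05 (limma), 4 higher (Mtor, Rictor, Tsc1, Rheb) and 2 lower (Rps6ka1, Rps6ka5), where 47.2% of 12976 genes did. Over all 8 libraries the TPM of the genotypes did not overlap for 4 of the 10, Tsc1, Tsc2, Rheb and Rps6ka1, where 35.7% of genes did not. For these 4 the exact permutation test of the TPM gave its smallest possible p, 0.0286. For Rictor it gave 0.0571, for Mtor and Rptor 0.114, for Rps6ka5 0.143, for Rps6kb1 0.657 and for Rps6kb2 1.0 (exact, two-sided, n = 4). In CPM the same test gave 0.0286 for Rictor and Rps6ka5 as well as for these 4, 0.0571 for Mtor and Rptor, 0.114 for Rps6kb1 and 0.771 for Rps6kb2. None of these p is adjusted, and with 4 libraries per genotype the test cannot go below 0.0286. The genotype effect did not pass a test of a difference between sexes or between batches for any of the 10. The smallest unadjusted p of these interactions in edgeR were 0.0722 for Mtor and 0.0735 for Rps6ka1, both by batch, with 8 libraries. Over 14211 genes the test by sex gave 0 adjusted p under 0.05 and 405 unadjusted p under 0.05, and the test by batch gave 1 and 610.

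TPM are scaled by transcript length, so that levels can be set in order across genes. In control (mean ± SD, n = 4) Rps6ka1 came first at 95.9 ± 6.81 TPM and Rheb second at 42.0 ± 0.442 TPM. Then came Tsc2 at 36.8 ± 2.19, Rps6kb1 at 36.4 ± 1.92 and Rps6kb2 at 36.1 ± 4.59 TPM, whose libraries overlapped. Rptor at 24.6 ± 2.63 and Mtor at 23.9 ± 2.32 TPM overlapped as well. Tsc1 at 10.0 ± 1.16 and Rictor at 8.02 ± 1.37 TPM overlapped in control. Rps6ka5 came last at 3.11 ± 0.658 TPM. Thus Rptor was more abundant than Rictor, and Tsc2 more abundant than Tsc1, in every library. In 4A1 KO the order was the same except that Mtor and Rptor, which overlapped, changed places. The lead of Rps6ka1 over Rheb narrowed to 65.6 ± 7.74 against 55.1 ± 3.94 TPM, with overlapping libraries.

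The 10 genes lie on 8 chromosomes, and positions are those of GENCODE M39 on GRCm39. Rptor and Rps6kb1 share chromosome 11 with Eif4a1. Most are long genes, and their merged exons had a median of 11979.5 bases, against 5413 over 14178 tested genes. Some share exon bases with a neighbour on the other strand. Rps6kb1 shares 2006 bases with Rnft1 and 202 with Tubd1, Rps6kb2 shares 1224 with Ptprcap and 47 with Coro1b, and Tsc2 shares 700 with Pkd1 and 546 with Nthl1. By counts the neighbours had log2 fold changes of 0.16 for Rnft1 (edgeR, adjusted p = 0.132), -1.15 for Tubd1, -0.26 for Ptprcap, -0.77 for Coro1b, 0.91 for Pkd1 and -0.11 for Nthl1 (adjusted p = 0.375). Rnft1 and Nthl1 did not pass. The counts used the strand of the read. Whether the TPM did is not given in the sources used here, and the part of these neighbours in the TPM was not tested. Rptoros, antisense to Rptor, had 0 counts in all libraries, and Gm12977 and Gm49703, which share exon bases with Rps6ka1 and Rps6ka5, had at most 3. Gm69672, annotated on the same strand as Rptor, shares 823 exon bases with it and was not analysed here. Apart from such neighbours, transcripts of other genes matched a member at 95% identity over 200 bases or more only for Tsc2, where 69 genes matched 1 of its 59 protein-coding transcripts, over at most 518 bases. The part of multi-mapping reads in these values was not tested.

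The wider pathway was read from 7 lists with 79 genes, of which 77 were tested. Of these 77, 10 were called higher and 7 lower, where 11.6% and 13.7% of all genes were. The adjusted p passed for 24 higher and 24 lower, where 26.3% of all genes passed higher and 26.7% lower, and the same shares apply to the counts of each list. Their median log2 fold change was -0.06, against 0.01 over all genes. As many genes passed in each direction.

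**Figure D4:**
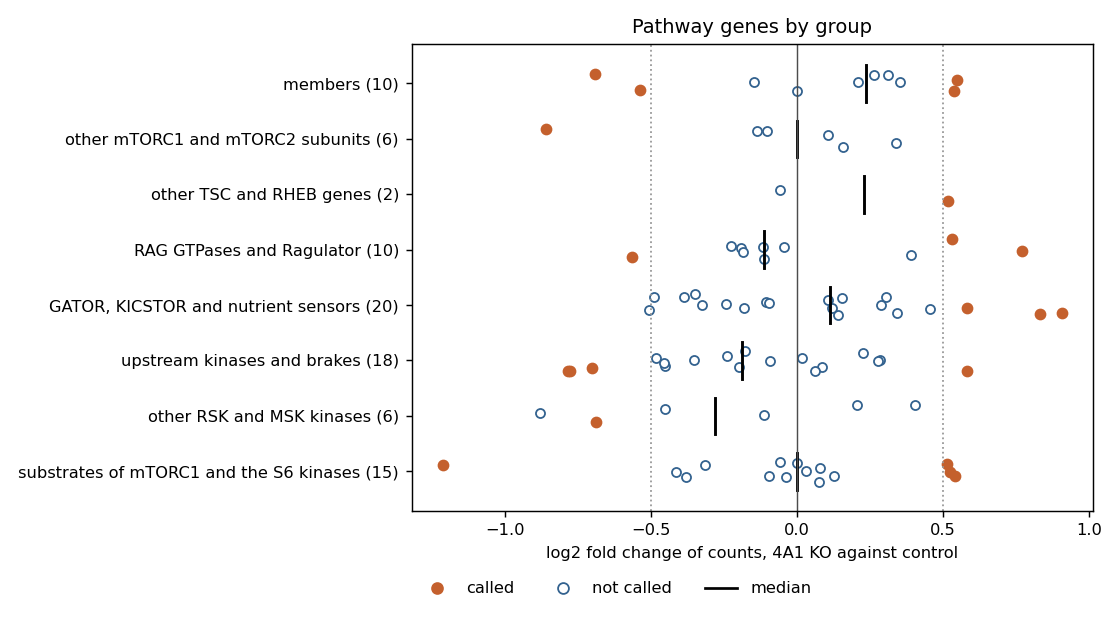
Log2 fold change of counts (horizontal axis, edgeR, replicates 2 to 4) of the 10 genes and of the 77 tested pathway genes by group, with called genes filled, the number of genes in brackets and the median as a black bar. The medians lie between -0.28 and 0.24, and called genes lie on both sides of 0 among the RAG and Ragulator genes, the upstream kinases and the substrates.

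Among 6 other subunits of the mTOR complexes, 2 rose and 1 fell. Prr5l, a low mTORC2 subunit at 0.651 CPM in control, was called, with a log2 fold change of -0.86 (edgeR, adjusted p = 0.0452). Of Tbc1d7, the remaining TSC subunit, and Rhebl1, the relative of Rheb, the second was called, at 0.52 (adjusted p = 0.00224). Among 10 genes for the RAG GTPases and Ragulator, which dock mTORC1 on the lysosome when amino acids are present, 3 rose and 3 fell. Rraga, which encodes RAGA, went from 98.9 to 169 CPM, a log2 fold change of 0.77 with an SE of 0.052 (adjusted p = 1.53e-05). Slc38a9, the lysosomal arginine sensor, rose by 0.53 (adjusted p = 0.00335), and the Ragulator subunit Lamtor5 fell by 0.57 on the log2 scale (adjusted p = 0.000198).

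Among 20 genes of the GATOR and KICSTOR complexes and the nutrient sensors, 9 rose and 5 fell, and the 3 that were called were all higher. Itfg2, a KICSTOR subunit, went from 43.5 to 77.5 CPM, a log2 fold change of 0.83 (edgeR, adjusted p = 1.49e-05). Bmt2, which encodes the S-adenosylmethionine sensor SAMTOR, rose by 0.91 (adjusted p = 7.53e-05), and Nprl3, a subunit of the GATOR1 brake on RAGA, by 0.58 (adjusted p = 0.00018). These 3 genes all act on the side that restrains mTORC1 when nutrients are short. Other subunits of the same brake went the other way. Nprl2 and Depdc5, named after their values were seen, fell by 0.39 and 0.32 on the log2 scale (adjusted p = 0.0148 and 0.0021).

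Of the 18 tested kinases and brakes upstream, 4 rose and 9 fell, and 1 was called higher and 3 lower. Pik3cd, the leukocyte PI3 kinase subunit, went from 159 to 92.8 CPM, and fell by 0.79 on the log2 scale (edgeR, adjusted p = 2.68e-05). Akt1 went from 267 to 164 CPM, and fell by 0.70 (adjusted p = 3.46e-05). Ddit4, also called lower and named after its value was seen, encodes the stress-induced mTORC1 inhibitor REDD1 and fell by 0.78 (adjusted p = 0.000963). So a growth signal kinase and an inhibitor of the pathway were both lower.

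Of 6 other RSK and MSK kinases, 2 rose and 2 fell, and Rps6kl1, at 1.54 CPM in control, was the only called gene (-0.69, edgeR, adjusted p = 0.0429). Of 15 tested substrates of mTORC1 and the S6 kinases, 3 rose, all of them called, and 4 fell, 1 of them called. Lpin1, a phosphatidate phosphatase that mTORC1 keeps out of the nucleus, went from 19.2 to 8.31 CPM, a log2 fold change of -1.22 (adjusted p = 1.93e-05). Larp1, which binds mRNAs with a terminal oligopyrimidine tract, rose by 0.52 (adjusted p = 6.51e-05), and Maf1, the repressor of RNA polymerase III, also by 0.52 (adjusted p = 6.61e-05). Eif4ebp1, the inhibitor of the cap-binding factor EIF4E, was named after its value was seen and rose by 0.54 (adjusted p = 7.53e-05). The substrate that names the S6 kinases, Rps6, went from 593 to 578 CPM (-0.04, adjusted p = 0.495). These are mRNA levels. Phosphorylation, by which mTORC1 and the S6 kinases act on these proteins, was not measured in these files.

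The genes whose CPM followed Tsc1 most closely across the 8 libraries were Fbf1 (Pearson r = 0.99), Ankrd11 (r = 0.986) and Nt5dc3 (r = 0.985), out of 8380 genes that averaged 10 CPM or more. Their log2 fold changes were 0.50, 0.48 and 0.54. The 8 points share the genotype difference and the libraries, so that r is a description of a likeness in these samples.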

How the data were processed

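RNA of CD40LB-activated B cells from 4 control and 4 4A1 KO mice was analysed, and groups were taken from the labels. Per the paper's methods and the submitters' processing notes, the authors trimmed reads with Trim Galore 0.6.6, mapped them to GRCm39 with HISAT2 2.1.0, and deposited raw read counts per gene (merged isoforms, strand-specific, Seqmonk) without normalization. The deposited TPM were made by the authors with StringTie 2.1.1. The handling of multi-mapping reads is not given in the sources used here. Each library held 31727557 to 43210858 counts, and SDs and p-values cover the spread between mice.

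The counts were tested in R 4.3.3 with edgeR 4.0.16 (TMM, filterByExpr by genotype, quasi-likelihood test, terms for batch, sex and genotype, two-sided). P-values were adjusted over all genes tested with the Benjamini-Hochberg method. CPM were computed with TMM library sizes. TPM were tested with limma 3.58.1 on log2(TPM + 1) where the mean reached 1 TPM, with the same terms. Single values and ratios were compared with exact permutation tests (scipy 1.17.1). The alternatives were other normalizations, filters and pseudocounts, DESeq2 1.42.0, no replicate block, all 8 libraries, glmTreat against a log2 fold change of 0.5 and leaving out each replicate. The edgeR and limma fits in their main settings were tested on simulated data.

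Same-numbered libraries of both genotypes share a batch and a sex in their labels. Their deviations from the genotype means correlated at 0.494 to 0.639 across genes, against -0.0746 or lower for other pairs. Deviations from a mean cancel out within a genotype. Positive values for same-numbered pairs thus make the other pairs negative on average, and the contrast is partly built in. In the 6 libraries, batch and sex together equal the replicate number as a block.

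The members and the lists were chosen with earlier results of these data known. Named are the 10 genes, Eif4a1, up to 3 called genes of each list with the smallest adjusted p, genes that overlap a member, and the 3 genes whose CPM followed most closely the called member with the smallest adjusted p, and 1 list gene that met these criteria is not reported here. Annotation was GENCODE M39, matched by identifier for 52647 of 53242 genes.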

Additional observations from a re-analysis of the deposited data

Results flagged for a closer look

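Dixon's test was applied to 50 groups of 4 libraries. These were each of the 10 genes and Eif4a1 per genotype in CPM and TPM, and each TPM ratio per genotype. In 3 groups a library stood apart, where chance flags about 1 in 20, or 2.5 of 50. Rps6kb1 in control had 1 library, replicate 3, below the others in TPM (gap over range 0.87) but not in CPM. Rps6ka5 in 4A1 KO had replicate 4 above the others in CPM (0.851) and in TPM (0.866), at 6.38 CPM and 3.34 TPM. The control of replicate 4 was also the highest of the controls for Rps6ka5, at 10.3 CPM and 4.01 TPM, and the log2 difference of this pair in CPM, -0.69, was like that of the other pairs.

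For Rps6kb2 in CPM, both female pairs were higher in 4A1 KO and both male pairs lower, by 0.0862 on the log2 scale between the sexes in favour of females. This was the only split of its kind among 40 examined between sexes and batches. The split of signs was not tested by itself, and edgeR's interaction of genotype and sex for Rps6kb2 had an unadjusted p of 0.496.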

How the results depend on the processing

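Of the 10 genes, 4 were called by counts under 8 of the alternatives, namely DESeq2 with and without shrinkage, both other normalizations, both other filters, no replicate block, and without replicate 4. With all 8 libraries 2 were called, with or without the replicate block, both lower. Leaving out 1 replicate, which left 2 libraries per genotype, gave 2 to 4 called by counts. The glmTreat test against 0.5 gave 0 of the 10, 6 pathway genes and 1627 genes in all. The adjusted p alone, an alternative added after the data were examined, gave 9, 48 and 7538. By TPM, where 6 of the 10 passed, 8 did with all 8 libraries, 4 with a pseudocount of 0.1 (Mtor and Rps6ka5 no longer did), 2 without a filter on low values, and 1 to 4 when a replicate was left out. Without the replicate block, 6 of the 10 had an adjusted p under 0.05 by counts (9 with it) and 4 by TPM (6 with it), while over all genes 5089 of 14218 passed by counts (7538 with it) and 4217 of 12976 by TPM (6123 with it). Rptor, Tsc2 and Rps6kb1 lost it by counts (0.0617, 0.0737 and 0.158), and Mtor and Rps6ka5 by TPM (0.0737 and 0.241). Upper quartile normalization shifted all genes by 0.0228 on the log2 scale.

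Signs turned only for values near 0. For Rps6kb2 by counts, DESeq2 gave -0.00196 without and -0.00204 with shrinkage, the fit with no replicate block -0.000383, all 8 libraries -0.0247 and -0.024 with the block, and leaving out 1 replicate -0.0128 to 0.024 (-0.00527 without replicate 4). By TPM, leaving out 1 replicate gave -0.0796 to 0.0985 for Rps6kb2 and -0.0408 to 0.0832 for Rps6kb1 (-0.00534 without replicate 2). The log2 ratio of Rps6kb1 to Rps6kb2 was -0.0147 in replicates 2 to 4, -0.124 in CPM and -0.0672 to 0.0793 when 1 replicate was left out. The cause was not tested. With 3 libraries per genotype and p-values that cover these mice only, effects near 0.5 cannot be placed on either side of that threshold.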

Other observations

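A pair of paralogs in this kinase network changed in opposite directions. It was picked after its values had been seen, so the p-value is a description of these libraries. Rps6ka1 (RSK1) went from 95.9 ± 6.81 to 65.6 ± 7.74 TPM (SD, n = 4), while its relative Rps6ka3 (RSK2) went from 10.3 ± 1.85 to 12.9 ± 2.41 TPM. By counts Rps6ka3 had a log2 fold change of 0.40 (edgeR, adjusted p = 0.000625). The ratio of RSK1 to RSK2 mRNA in a library was 7.94 to 11.1 in control and 4.27 to 6.22 in 4A1 KO, without overlap, a log2 difference of -0.86 (exact permutation test, two-sided, unadjusted p = 0.0286, the smallest that 4 against 4 can give). RSK1 was still the more abundant of the pair in every 4A1 KO library. These ranges include replicate 1, and replicates 2 to 4 alone gave a log2 difference of -0.87.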
